A study of Rattus norvegicus with 16 samples.

Results

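Transcript levels of 63 extracellular matrix genes were examined in the rat periaqueductal gray (PAG). This midbrain structure shapes vocal output, pain and bodily states of defence. The genes were chosen by symbol, with earlier results of these data known. The symbols were those of collagen and laminin chains, FRAS1 and FREM proteins, matrilins, fibulins, fibrillins, fibronectin, nidogens and perlecan. Also named were Tnc and Tnr of the tenascins, the lecticans Acan, Bcan, Ncan and Vcan, the link protein genes Hapln1, Hapln3 and Hapln4, and the small leucine-rich proteoglycan genes Dcn, Lum, Bgn, Fmod and Ogn. A row had to carry such a name in both gene tables of the series, joined by Ensembl ID, and 63 of 13731 shared rows did.

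Bulk RNA sequencing was done on PAG from Long Evans rats aged 8 months. There were 16 libraries, namely 4 from female Pink1-/- rats, 4 from female wildtype (WT) rats, 4 from male Pink1-/- rats and 4 from male WT rats. Pink1 is a kinase of the mitochondrial surface that flags faulty mitochondria for breakdown, and Pink1-/- rats, a knockout line, serve as a model of Parkinson disease. One table covered the 8 female libraries and the other the 8 male libraries. The level of a gene is the mean over both genotypes of a sex, in read counts scaled to library size (CPM), and the tables carried no value per library. No spread between animals, interval or test of the differences between the female and male tables can therefore be given. Columns with the authors' own comparison of Pink1-/- with WT rats were not used here, so nothing is said of the effect of genotype. The depth of each library is unknown, and the Pink1 level of each animal could not be checked against its label.

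The extracellular matrix of the brain has a loose part between cells and a dense part around vessels. Around many neurons, lecticans bind hyaluronan through link proteins and are tied together by tenascin-R, which forms perineuronal nets. Around vessels and below the pia, a basement membrane is built from collagen IV, laminin trimers, nidogens and perlecan. Fibrillar collagens, decorin and lumican belong mainly to the fibroblasts of the meninges and large vessels. FRAS1 and the FREM proteins are a family found at basement membranes. Some of them assemble with one another in the embryo, where they join epithelium to the tissue below.

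Of 4 Y-linked genes looked up, Kdm5d and Eif2s3y had a row in the male table alone, while Ddx3y and Uty matched no row in either table used here. The tables were normalized separately, and libraries of the sexes carry names of different style, so sex cannot be told apart from a difference in cohort, on which the labels are silent. Over the 13731 shared genes the female mean lay above the male mean by a median of 0.19 on the log2 scale. That median was taken off each difference below, and the result is called the centred difference (female minus male, log2). The middle 90% of shared genes lay between -0.77 and 1.09. These differences are a description of both tables and were not tested.

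The matrix genes leaned to the female table. Of the 63, 44 had a centred difference above 0 and 19 below, with a median of 0.21, against 0 by construction over all shared genes. A centred difference above 1 log2 unit was found for 12 genes, which is 19.0% of the members, where 6.23% of all shared genes were. None of the 63 was lower by over 1 log2 unit, where 2.83% of all shared genes were. With no median taken off, 54 of the 63 were higher in the female table, as were 9003 of the 13731 shared genes. The 10 that changed side were Col3a1, Fbn2, Lama4, Lamb1, Vcan, Col15a1, Nid1, Col8a2, Bgn and Tnr, so no direction is given for these. Differences were wider among genes of low level, for members and for genes at large. Of the 26 members with at least 10 CPM in the female and in the male table, 3 (11.5%) passed 1 log2 unit upwards. Among the 7823 shared genes with such levels 3.08% did. Of the other 37 members 9 (24.3%) did, against 10.4% of 5908 genes.

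**Figure D1:**
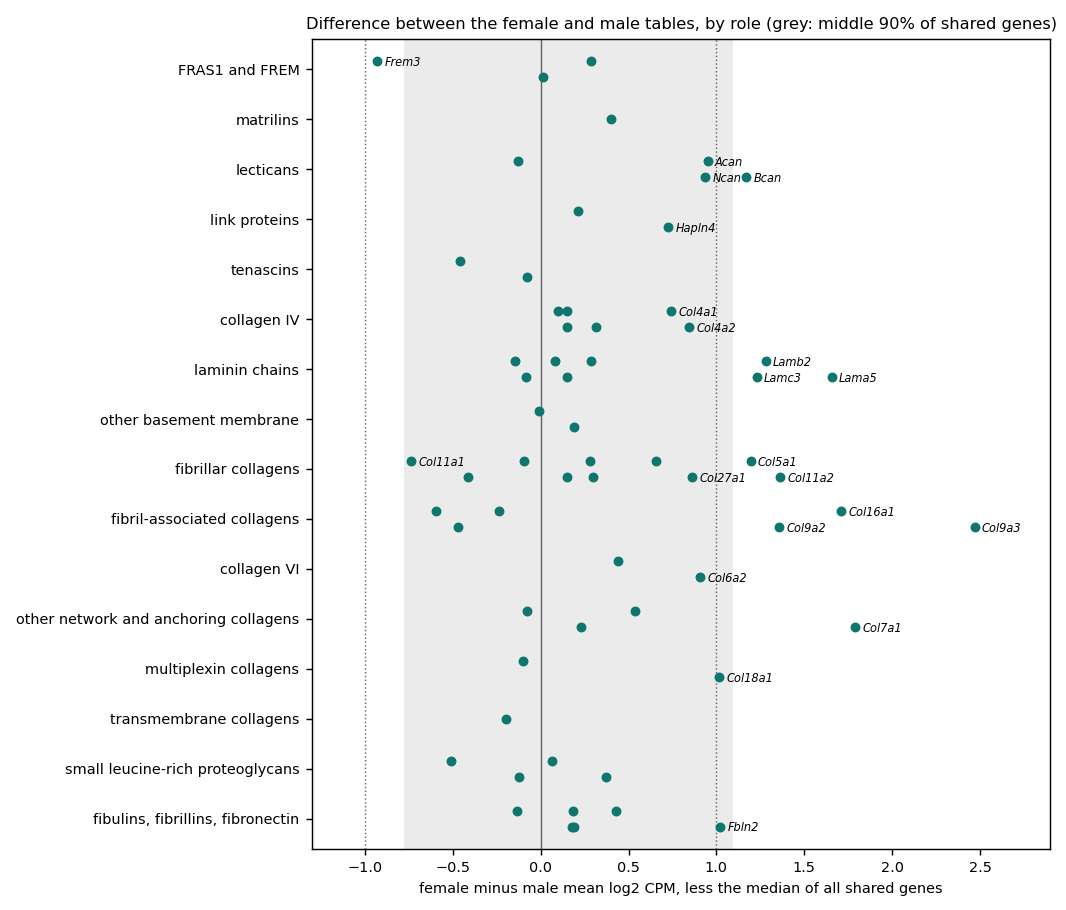
Centred difference of each of the 63 matrix genes (female minus male mean log2 CPM, horizontal axis) by role (vertical axis); each point is a gene, the grey band holds the middle 90% of shared genes and dotted lines mark 1 log2 unit either way. Frem3, at -0.93, is the 1 point left of the band, while 10 genes, up to Col9a3 at 2.47, lie right of it. The band covers genes of all levels, and differences were wider among genes of low level such as Frem3.

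Frem3, whose protein belongs to the FRAS1 and FREM family, had a low level in both tables. It averaged 1.76 CPM in the female table, against 2.95 CPM in the male table. Its centred difference of -0.93 was the lowest of the 63 members and the only one under the 5th percentile of all shared genes. That percentile was taken over genes of all levels. Among the 5908 shared genes under 10 CPM in either table, 5.65% were lower by over 1 log2 unit, so Frem3 did not stand out among these. In rank it stood above 8.86% of rows in the female table and above 18.6% in the male table. At such levels few reads stand behind a mean, and how far single animals differed is unknown.

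Other genes of that family did not share the pattern of Frem3. Fras1, the founding member, averaged 24.6 CPM in the female table and 17.8 CPM in the male table, a centred difference of 0.29. Frem2, whose protein in mice stabilises FRAS1 at the membrane, averaged 2.76 CPM in the female table and 2.41 CPM in the male table, a centred difference of 0.01. Frem1 had a row in the female table alone, at 1.03 CPM, close to the lowest level listed there (0.503 CPM). Frem3 thus lay 0.93 log2 units under the centre, where Fras1 and Frem2 lay slightly above it or at it.

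Matn2 encodes matrilin-2, an adaptor that links collagens and other matrix proteins. Its mean was 10.03 CPM in the female table, against 6.68 CPM in the male table (centred difference 0.40). Matn4 had a row in the female table alone, at 1.37 CPM.

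**Figure D2:**
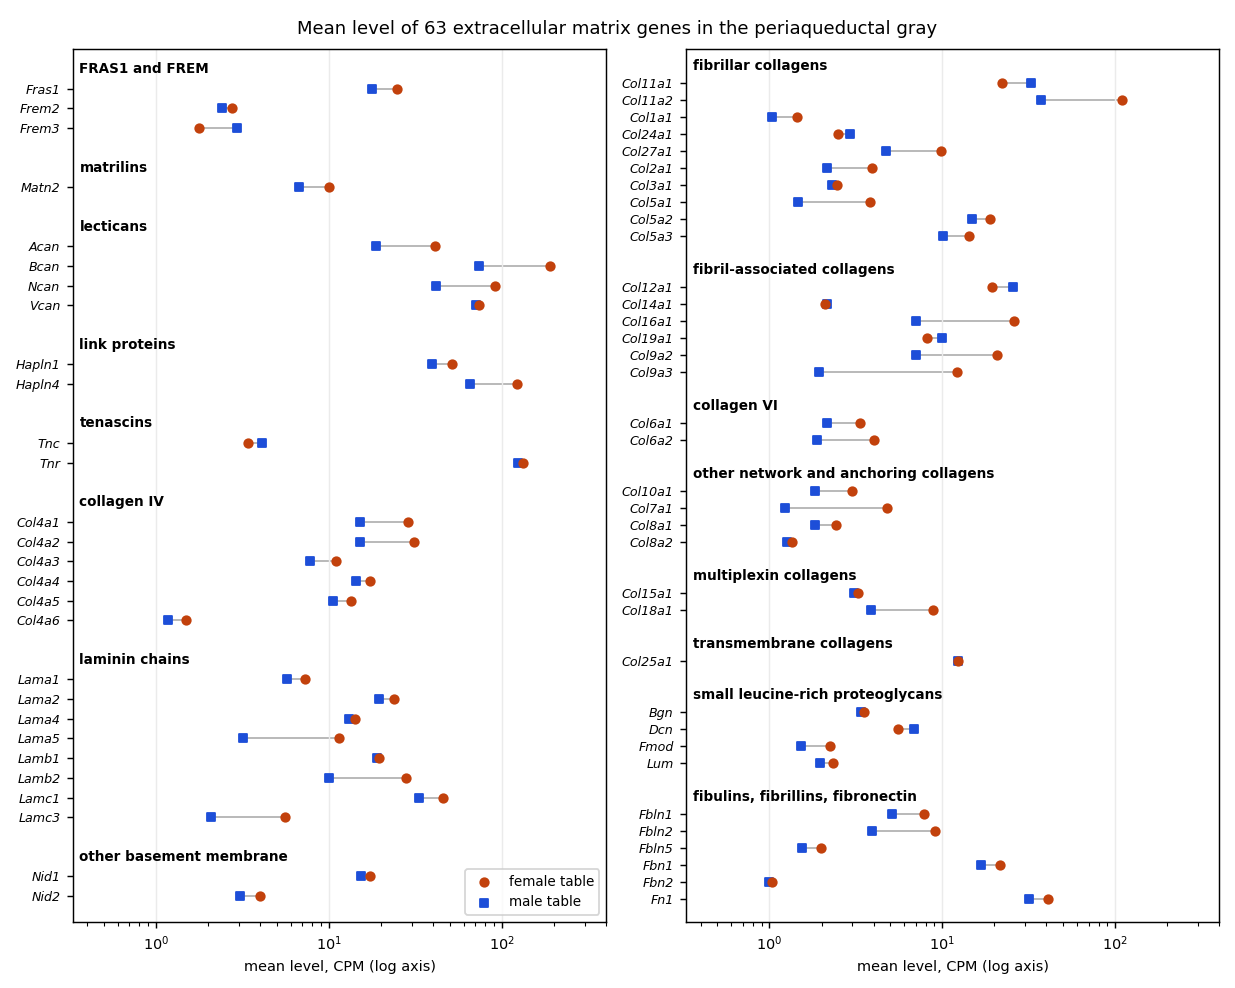
Mean level of the 63 matrix genes in CPM (log axis) over 8 female libraries (circles) and 8 male libraries (squares), grouped by role; lines join the values of a gene, and no error can be drawn. Among the lecticans Bcan lies at 189 CPM in the female table and 74.0 CPM in the male table, while Vcan lies at 73.4 and 70.4 CPM.

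The lecticans are chondroitin sulfate proteoglycans that bind hyaluronan, and 3 of the 4 lay above the centre. Of these only Bcan lay outside the middle 90% of shared genes. Bcan, brevican, averaged 189 CPM in the female table, against 74.0 CPM in the male table (centred difference 1.17). Acan, aggrecan, the main proteoglycan of perineuronal nets, averaged 41.0 CPM in the female table, against 18.7 CPM in the male table (0.95). Ncan, neurocan, averaged 91.1 CPM in the female table, against 41.8 CPM in the male table (0.94). Vcan, versican, was apart from them at 73.4 CPM in the female table and 70.4 CPM in the male table (-0.13).

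The link proteins fasten lecticans to hyaluronan. Hapln4, which is found with brevican and aggrecan at nets, averaged 123 CPM in the female table, against 65.2 CPM in the male table, a centred difference of 0.72. Hapln1 averaged 51.7 CPM in the female table, against 39.2 CPM in the male table, a smaller difference of 0.21. Hapln3 was listed at 1.07 CPM in the female table alone. Lecticans and link proteins lie beside each other in the rat genome (RefSeq genes of assembly GRCr8), Ncan next to Hapln4 and Vcan next to Hapln1. The first pair had centred differences of 0.94 and 0.72, and the second -0.13 and 0.21.

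Tenascin-R crosslinks lecticans in nets, and its gene Tnr had nearly the same level in both tables, 132 CPM in the female table and 123 CPM in the male table. The centred difference of Tnr was -0.08. Tnc, tenascin-C, which is made by immature glia and in injury, averaged 3.40 CPM in the female table, against 4.10 CPM in the male table (-0.46). Genes of the net thus did not move as 1 block, since Bcan, Acan, Ncan and Hapln4 lay at 0.72 or more while Tnr, Vcan and Hapln1 lay between -0.13 and 0.21.

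Collagen IV forms the network of basement membranes, and its chains fall into 3 gene pairs that lie head to head. All 6 of the genes had centred differences above 0. Col4a1 and Col4a2, the chains found in nearly all vessels, had nearly equal means within each table. Col4a1 averaged 28.7 CPM in the female table, against 15.1 CPM in the male table (0.74). Col4a2 averaged 30.9 CPM in the female table, against 15.1 CPM in the male table (0.84). The other pairs differed less between tables. Col4a3 averaged 10.9 CPM in the female table and 7.71 CPM in the male table (0.32), and Col4a4 17.3 CPM in the female table and 14.2 CPM in the male table (0.10). Col4a5 averaged 13.4 CPM in the female table and 10.6 CPM in the male table (0.15), and Col4a6 1.48 and 1.17 CPM (0.15).

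The promoters of the first and second pair are shown because the genes of a pair lie back to back and their windows share bases. Each window runs from 250 bases before to 50 after the start of the gene, is written 5′ to 3′ on the strand of its gene, and comes from RefSeq (GRCr8). Capitals mark the bases shared with the window of the partner gene, which reads them on the other strand.
Col4a1 (GRCr8 chr16:84885347-84885646, plus strand): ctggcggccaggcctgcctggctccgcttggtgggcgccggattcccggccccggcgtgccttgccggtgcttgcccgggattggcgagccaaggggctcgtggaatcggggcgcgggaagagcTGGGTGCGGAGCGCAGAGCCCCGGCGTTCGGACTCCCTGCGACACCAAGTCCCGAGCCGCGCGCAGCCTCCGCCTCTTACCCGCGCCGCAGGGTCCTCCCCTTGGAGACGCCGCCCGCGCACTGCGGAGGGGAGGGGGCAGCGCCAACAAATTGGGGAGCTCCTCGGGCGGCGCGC
Col4a2 (GRCr8 chr16:84885471-84885770, minus strand): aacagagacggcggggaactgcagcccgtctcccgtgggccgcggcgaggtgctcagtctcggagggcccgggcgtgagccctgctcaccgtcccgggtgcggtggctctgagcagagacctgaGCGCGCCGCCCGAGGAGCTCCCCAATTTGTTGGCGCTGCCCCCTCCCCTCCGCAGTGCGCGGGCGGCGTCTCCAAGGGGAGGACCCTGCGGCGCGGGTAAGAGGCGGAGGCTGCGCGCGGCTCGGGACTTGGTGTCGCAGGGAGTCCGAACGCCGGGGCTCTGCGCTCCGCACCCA
Col4a3 (GRCr8 chr9:91323740-91324039, plus strand): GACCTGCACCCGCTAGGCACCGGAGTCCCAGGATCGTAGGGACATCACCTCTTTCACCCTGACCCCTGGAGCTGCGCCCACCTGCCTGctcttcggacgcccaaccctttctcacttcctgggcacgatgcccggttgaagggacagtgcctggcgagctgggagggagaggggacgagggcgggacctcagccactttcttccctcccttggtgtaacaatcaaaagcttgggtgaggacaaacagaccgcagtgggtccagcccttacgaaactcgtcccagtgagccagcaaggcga
Col4a4 (GRCr8 chr9:91323528-91323827, minus strand): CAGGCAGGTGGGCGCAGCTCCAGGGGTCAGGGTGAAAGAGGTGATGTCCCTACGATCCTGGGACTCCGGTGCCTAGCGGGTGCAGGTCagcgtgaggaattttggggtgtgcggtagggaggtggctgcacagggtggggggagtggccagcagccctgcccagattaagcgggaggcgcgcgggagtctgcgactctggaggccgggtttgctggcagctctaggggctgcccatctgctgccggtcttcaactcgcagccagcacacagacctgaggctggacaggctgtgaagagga

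Of the 300 bases of each window, Col4a1 and Col4a2 shared 176, while Col4a3 and Col4a4 shared 88. The windows of the first pair were rich in G and C, at 75.0% and 73.7%, against a median of 52.3% over 27457 promoters of equal length. They held 38 and 37 CG dinucleotides, where the median promoter held 7. The letters GGGCGG, a GC box, were searched on both strands and occurred 2 times in each of these windows, as they did at least once in 34.9% of all promoters. The letters CCAAT, also searched on both strands, occurred 2 times in the Col4a1 window and 1 time in that of Col4a2, and in 37.7% of all promoters. In the windows of Col4a3 and Col4a4 there were 1 and 0 matches to GGGCGG and none to CCAAT. These matches describe letters in a window and say nothing of what binds there.

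Neighbouring matrix genes lay close in centred difference in some places and not in others. Pairs were taken as members that directly followed each other when protein-coding genes were ordered by start. Of the 7 such pairs, Col4a1 and Col4a2 were nearest to each other, with a gap of 0.10. Dcn and Lum were farthest apart of the 7, with a gap of 0.58. Col4a5 and Col4a6, at 0.15 each, were not among the 7 pairs. For Col6a1 and Col6a2 the gap was 0.47, and for Col3a1 and Col5a2 it was 0.24.

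Laminins are trimers of an alpha, a beta and a gamma chain, and the chains of 1 class differed widely in the size of the difference. Lama5, an alpha chain of mature vessels, averaged 11.5 CPM in the female table, against 3.20 CPM in the male table (1.66). Lamb2, a beta chain, averaged 27.7 CPM in the female table, against 10.01 CPM in the male table (1.28). Lamc3, a gamma chain, averaged 5.56 CPM in the female table, against 2.08 CPM in the male table (1.23). These 3 were the laminin genes past 1 log2 unit.

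The remaining laminin chains lay near the centre. Lama2 was at 23.6 CPM in the female table and 19.5 CPM in the male table (0.08), and Lama4 at 14.1 and 13.1 CPM (-0.08). Lama1 was at 7.23 CPM in the female table and 5.73 CPM in the male table (0.15). The widely used chains Lamb1 and Lamc1 were at 19.3 and 45.8 CPM in the female table, against 18.8 and 33.0 CPM in the male table (-0.15 and 0.29). So in each class of chain 1 gene was higher by over 1 log2 unit and the others lay within 0.29 of the centre. Lamb3 had a row in the female table alone, at 1.18 CPM.

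Nidogens bridge the laminin and collagen IV networks. Nid1 averaged 17.3 CPM in the female table and 15.3 CPM in the male table (-0.01), and Nid2 3.97 and 3.05 CPM (0.19). Both lay near the centre, as did the greater part of the laminins. No row used here matched the symbol of perlecan (Hspg2), which is not analysed here.

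Collagens outside the basement membrane lay on both sides of the centre. Collagen IX decorates fibrils, and Col9a3 averaged 12.2 CPM in the female table, against 1.94 CPM in the male table. Its centred difference of 2.47 was the highest of the 63 members. Col9a2 averaged 20.6 CPM in the female table, against 7.07 CPM in the male table (1.36). Col16a1, another fibril-associated collagen, averaged 26.1 CPM in the female table, against 6.99 CPM in the male table (1.71). The anchoring fibril gene Col7a1 averaged 4.81 CPM in the female table, against 1.22 CPM in the male table (1.79).

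Other fibril-associated collagens lay on the opposite side. Col12a1 averaged 19.4 CPM in the female table, against 25.7 CPM in the male table (-0.60). Col19a1, made by some neurons in mice, averaged 8.17 CPM in the female table, against 9.94 CPM in the male table (-0.47). Col14a1 averaged 2.09 CPM in the female table and 2.16 CPM in the male table (-0.24). Of the 6 genes of this class 3 were thus past 1 log2 unit upwards and 3 were below the centre. Col20a1 had a row in the female table alone, at 0.969 CPM.

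The chains of collagen XI, a minor fibrillar collagen, split in the same manner. Col11a2 averaged 109 CPM in the female table, against 37.3 CPM in the male table (1.36). Col11a1 averaged 22.2 CPM in the female table, against 32.4 CPM in the male table (-0.73). The partner chains thus lay on opposite sides of the centre, 1.36 above and 0.73 below. Collagen V chains, which help start fibrils, lay above it. Col5a1 averaged 3.83 CPM in the female table, against 1.47 CPM in the male table (1.19). Col5a2 was at 18.8 CPM in the female table and 14.8 CPM in the male table (0.15), and Col5a3 at 14.2 and 10.1 CPM (0.30).

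The major fibrillar collagens were at low levels in both tables. Col1a1 averaged 1.43 CPM in the female table and 1.04 CPM in the male table (0.28), and Col3a1 2.46 and 2.30 CPM (-0.09). Col1a2, the second chain of collagen I, had a row in the female table alone, at 0.992 CPM. Col2a1, the cartilage collagen, averaged 3.89 CPM in the female table and 2.17 CPM in the male table (0.66). Col27a1 averaged 9.79 CPM in the female table and 4.73 CPM in the male table (0.86), whereas Col24a1 averaged 2.51 and 2.93 CPM (-0.41).

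The other collagens were mostly at a few CPM. Col6a1 and Col6a2, chains of the beaded filament collagen, averaged 3.33 and 4.02 CPM in the female table, against 2.15 and 1.88 CPM in the male table (0.44 and 0.91). Col18a1, the source of endostatin, averaged 8.87 CPM in the female table, against 3.86 CPM in the male table (1.01), just past 1 log2 unit. Its relative Col15a1 averaged 3.26 CPM in the female table and 3.07 CPM in the male table (-0.10).

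Network collagens of the short-chain type were low in both tables. Col8a1 and Col8a2 averaged 2.43 and 1.36 CPM in the female table, and 1.82 and 1.26 CPM in the male table (0.23 and -0.08). Col10a1 averaged 3.01 CPM in the female table and 1.82 CPM in the male table (0.54). Col25a1, a transmembrane collagen of neurons, was nearly level at 12.3 CPM in both tables (-0.19).

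Small leucine-rich proteoglycans bind collagen fibrils. Dcn, decorin, averaged 5.51 CPM in the female table, against 6.90 CPM in the male table (-0.51). Lum, lumican, averaged 2.33 CPM in the female table and 1.96 CPM in the male table (0.06). Bgn, biglycan, was at 3.52 CPM in the female table and 3.38 CPM in the male table (-0.13), and Fmod, fibromodulin, at 2.25 and 1.53 CPM (0.37). None of these passed 1 log2 unit.

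Ogn, osteoglycin, could not be joined by name. Both tables held the same 2 Ensembl IDs described as osteoglycin, but the name Ogn stood on ENSRNOG00000029792 in the female table and on ENSRNOG00000047786 in the male table. By ID, the first averaged 4.18 CPM in the female table, against 6.10 CPM in the male table (-0.73), and the second 0.963 CPM against 1.29 CPM (-0.61). Summed, they came to 5.15 CPM in the female table, against 7.39 CPM in the male table (-0.71). If the 2 IDs share sequence, which was not checked, reads are divided between them by estimate, and that division is uncertain. A join by symbol would have set the female row of the first ID beside the male row of the second.

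Fibronectin, fibrillins and fibulins make fibres and the links between them. Fn1, fibronectin, averaged 40.9 CPM in the female table and 31.5 CPM in the male table (0.19). Fbn1, the main fibrillin, averaged 21.5 CPM in the female table and 16.7 CPM in the male table (0.18). Fbn2 was at 1.03 CPM in the female table and 0.992 CPM in the male table (-0.13). Fbln2 averaged 9.04 CPM in the female table, against 3.91 CPM in the male table (1.02), just past 1 log2 unit. Fbln1 and Fbln5 were at 7.86 and 1.99 CPM in the female table and at 5.13 and 1.54 CPM in the male table (0.43 and 0.19).

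Reads per gene grow with transcript length and no transcript lengths were used, so levels and ranks in CPM of different genes also reflect their lengths. As a group, 32 members had at least 10 CPM in the female table and 26 in the male table. The level of the median member was 10.03 CPM in the female table and 6.68 CPM in the male table, where all rows had medians of 16.1 and 13.2 CPM.

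Other genes that act on the matrix were set beside the members. Of 20 matrix receptors shared by the tables, 11 were above the centre (13 with no median taken off; median 0.09), and Ddr1, a collagen receptor, at 102 CPM in the female table and 35.7 CPM in the male table, was the 1 past 1 log2 unit (1.33). For 11 collagen-modifying enzymes the median was 0.24 with 8 above, including the collagen chaperone Serpinh1 at 0.41 and the lysyl hydroxylase Plod3 at 0.70. None of these enzymes, and none of 14 matrix proteases and inhibitors (median 0.12), passed 1 log2 unit either way. Over all shared genes 6.23% were higher and 2.83% lower by that much, so few or none would pass in lists this short. Of 7 genes that make or break down hyaluronan 5 were below the centre (4 with no median taken off), while Hyal2, a hyaluronidase, was at 1.28. The synthases Has1, Has2 and Has3 were at -0.24, -0.18 and -0.26, but their means before centring were nearly level. These were 3.09, 1.41 and 8.31 CPM in the female table, and 3.20, 1.40 and 8.74 CPM in the male table. The lecticans that bind their product had a median of 0.94.

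Markers of the cells that the dissection could hold moved between the tables as well. All 6 neuron markers lay below the centre (median -0.29; 4 of 6 lower with no median taken off), with a summed level of 2170 CPM in the female table and 2505 CPM in the male table. The serotonin neuron genes Tph2 and Slc6a4 lay at -0.89 and -1.55. Of 4 oligodendrocyte markers 3 lay above, Mag at 1.17 and Mbp at 0.79 among them. Of the precursor genes Cspg4 lay at 1.06 and Pdgfra at 0.04. The summed level of the 4 oligodendrocyte markers was 9701 CPM in the female table and 6244 CPM in the male table.

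Vessel markers did not share a direction. Of 3 endothelial markers in both tables, the tight junction gene Cldn5 was at 2.12, with 36.5 CPM in the female table and 7.40 CPM in the male table, whereas Flt1 (higher with no median taken off) and Cdh5 were at -0.05 and -0.37. Mural markers ran from -0.79 for Rgs5 to 0.49 for Pdgfrb. Of the fibroblast and meningeal list 3 of 5 genes lay above the centre, with a median of 0.04. Col1a1, Dcn and Lum of that list are themselves among the 63 members and Pdgfra also marks precursors, which leaves Slc6a13, a transporter of those cells, at -0.70.

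Lists of other regions and surfaces held fewer rows. The 3 microglial markers lay between -0.20 and -0.04 (1 of 3 lower with no median taken off), and 2 of 4 astrocyte markers above the centre (3 with no median taken off). Cerebellar genes lay lower in the female table, Cbln1 at -0.60 and Calb1, which other brain regions use too, at -0.72, while Fat2 had a row in the male table alone, at 19.3 CPM. Of the choroid plexus genes Kl was at -0.38, and Ttr was listed in the male table alone, at 0.568 CPM. The ependymal gene Ccdc153 stood in the male table alone, at 4.20 CPM. In bulk tissue fewer cells of a type cannot be told apart from less RNA per cell, and the part of cell makeup in the differences of the matrix genes was not tested.

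**Figure D3:**
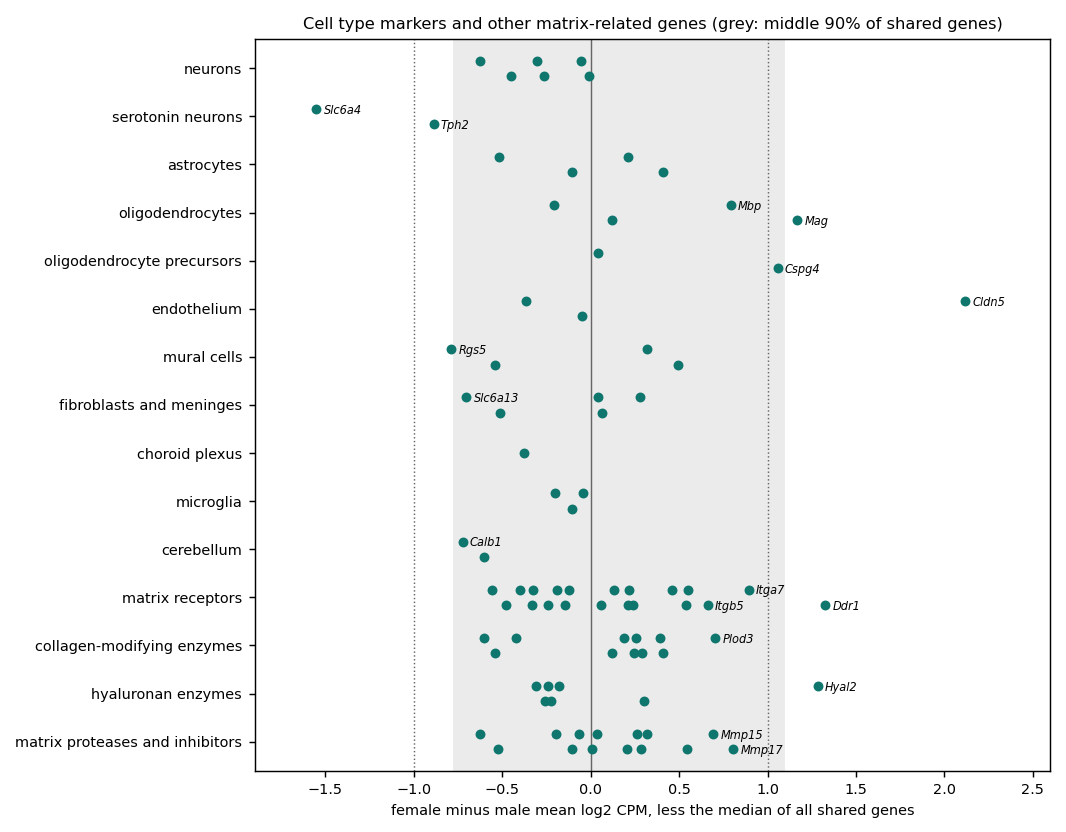
Centred difference (female minus male mean log2 CPM, horizontal axis) of markers of cell types and of matrix receptors, enzymes and proteases (vertical axis); each point is a gene with a row in both tables, and the grey band holds the middle 90% of shared genes. All 6 neuron markers lie left of 0 (4 would with no median taken off), and Cldn5 at 2.12 lies apart from the other endothelial markers.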

How the data were processed

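Total RNA from frozen PAG was made into libraries with a TruSeq kit, per the labels. RSEM, which divides ambiguous reads between rows by estimate, and edgeR 3.9 are the tools of the authors named in their processing notes. No aligner, genome build, annotation or low-count filter is given in these sources. The authors deposited a table per sex, with 14272 rows for females and 14316 for males. The deposited average log2 CPM values are the authors' means over the 8 libraries of a sex, and only these were used. Other columns hold the authors' own comparison of Pink1-/- with WT (log2 fold change, likelihood ratio, p-value, adjusted p-value, direction) and were left out.

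Joining by Ensembl ID gave 13731 genes, 279 of them under differing names. Differences were centred on the median of all shared genes and counted past 1 log2 unit. A planned count test needs values per library. A planned scaling by coding length needs lengths, and neither was run. With no lengths, the rule that limited which collagens, fibulins and fibrillins to name could not be used, so every member is named. Members and lists were chosen with earlier results of these data known. All 63 members matched a RefSeq symbol (GRCr8). Calculations used Python 3.11.15, numpy 2.4.6 and pandas 2.3.3 and were tested on simulated tables.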

Additional observations from a re-analysis of the deposited data

How the results depend on the processing

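With nothing taken off, the median difference of the 63 members between tables was 0.40 log2 units in place of 0.21, 54 in place of 44 members lay higher in the female table, and 17 in place of 12 passed 1 log2 unit, as did 9.91% of all shared genes. Centring on genes of at least 5 CPM gave 0.23, with 45 members above and 12 still past 1 log2 unit, and moved only Nid1 across 0. By rank among shared genes, 45 members stood higher in the female table. With a limit of 20 CPM in place of 10, 19 members in the female table and 11 in the male table passed. Among members of at least 5 CPM in both tables, an alternative chosen after seeing the data, the median was 0.20. Of these 34 members 5 (14.7%) passed 1 log2 unit, against 4.26% of 9943 shared genes with such levels. No alternative turned the direction of the median. Leaving out single libraries and scaling by length were not run, since the tables hold neither values per library nor lengths. No paired analysis was possible because the tables hold no value per library. Without such values no difference here has an error.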
